A study of Arabidopsis thaliana with 48 samples.

Results

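The subject here is a set of late light-induced genes of dark-grown Arabidopsis thaliana seedlings, made up of 71 probe sets of 22746 on the array without its controls. The set was chosen by measured values. A light-over-dark difference was taken as log2 of (mean signal in light + 16) over (mean signal in the dark group of the same harvest + 16). Members had a mean signal of at least 50 in some group, a difference of 0.8 or more at 4 h under each of 7 light treatments, and a difference smaller than 0.5 in size at 45 min under each of them. The first and second conditions left 126 of the 11838 probe sets with a mean of 50 or more, and 49 of these failed the 45-min limit. Of the remaining 77, 6 photosynthesis genes (PSAE-1, PSAN, PSBW, ATPC1, RCA and LHCB4.1) were left out by name. A further 2 names on the leave-out list, PSBY and LHCB4.2, did not meet the thresholds. For 18 of the 71 members the platform annotation used here gives 1 gene, and the other 53 are given by probe set ID only.

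Seedlings that germinate in darkness grow a long hypocotyl, keep small folded cotyledons and hold etioplasts, plastids without thylakoids. Phytochromes (red and far-red light receptors), cryptochromes (blue and UV-A light) and UVR8 (UV-B light) end this programme and start greening, in which nuclear genes for plastid proteins are transcribed and etioplasts become chloroplasts. A short pulse can start the process through phytochrome, and continuous far-red light acts through phytochrome A.

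All groups were Col-0 wild-type seedlings, mainly hypocotyls and cotyledons, grown on agar at 22 °C for 94 h of darkness after a 2-h germination light. Stratification was for 48 h at 8 °C in all groups. Each of 16 groups had 3 arrays, 48 in all: 7 light groups and a dark group at 4 h, and the same at 45 min. Continuous light of 10 µmol per m2 and s was far-red of 715 nm, red of 650 nm, blue of 453 nm or white. The red pulse, 1 min long, had 50 µmol per m2 and s, and the UV-A pulse took 5 min at 7 W per m2 behind a 327-nm filter. Both pulses were followed by darkness until harvest. The UV-A/B pulse took 5 min, and 7 W per m2 behind a 307-nm filter is spelled out in 1 of its 6 labels only. That label belongs to UV-A/B 45 min replicate 2, whose labels conflict as given below. Fluences and durations therefore differ between the treatments. The dark controls stayed dark throughout, but for dark 4 h replicate 1 a green germination light is noted instead of red, and UV-A/B 45 min replicate 2 is titled as irradiated and described as dark. Without those 2 arrays the same thresholds gave 81 probe sets, 69 of them among the 71. Whether replicates came from separate cultures is not stated, so p-values measure only the spread between these samples. In whole seedlings, fewer cells of a type and less RNA per cell cannot be told apart.

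The members moved together between replicate arrays, which bears on each value below. Every array's deviation from its group was taken as the median over the 71 probe sets of log2(signal + 16) minus the group mean. Replicate 2 lay above replicate 3 in 16 of 16 groups, was the highest array in 14 and was the highest in all 7 light groups at 4 h. The 16 include far-red 45 min, where the title of replicate 2 has a prefix of 1 and a suffix of REP2. The widest splits were in the UV groups at 4 h. Replicates 1, 2 and 3 deviated by 0.01, 0.42 and -0.46 under UV-A and by -0.17, 0.58 and -0.42 under UV-A/B. The same medians over all 15777 probe sets tested lay between -0.02 and 0.02 in every array. The shift was also present in darkness, at 0.01, 0.13 and -0.12 for replicates 1, 2 and 3 of dark 4 h. The 6 photosynthesis genes left out by name moved alike, with 0.05, 0.30 and -0.30 under UV-A and -0.14, 0.49 and -0.34 under UV-A/B. They met the same thresholds on these same arrays and so are not a separately chosen set. Pairs of members had a median correlation of 0.82 over the 21 light arrays at 4 h after removing group means (quartiles 0.57 and 0.90), a description over arrays that share replicate numbers. Membership depends on single arrays at both harvests. Without UV-A/B 4 h replicate 2 the thresholds gave 47 probe sets, all among the 71. Without UV-A 4 h replicate 2 they gave 54, with 53 among the 71. Without UV-A/B 45 min replicate 3 they gave 50 and without dark 45 min replicate 2 they gave 56, all among the 71. What set these replicates apart was not tested.

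**Figure D1:**
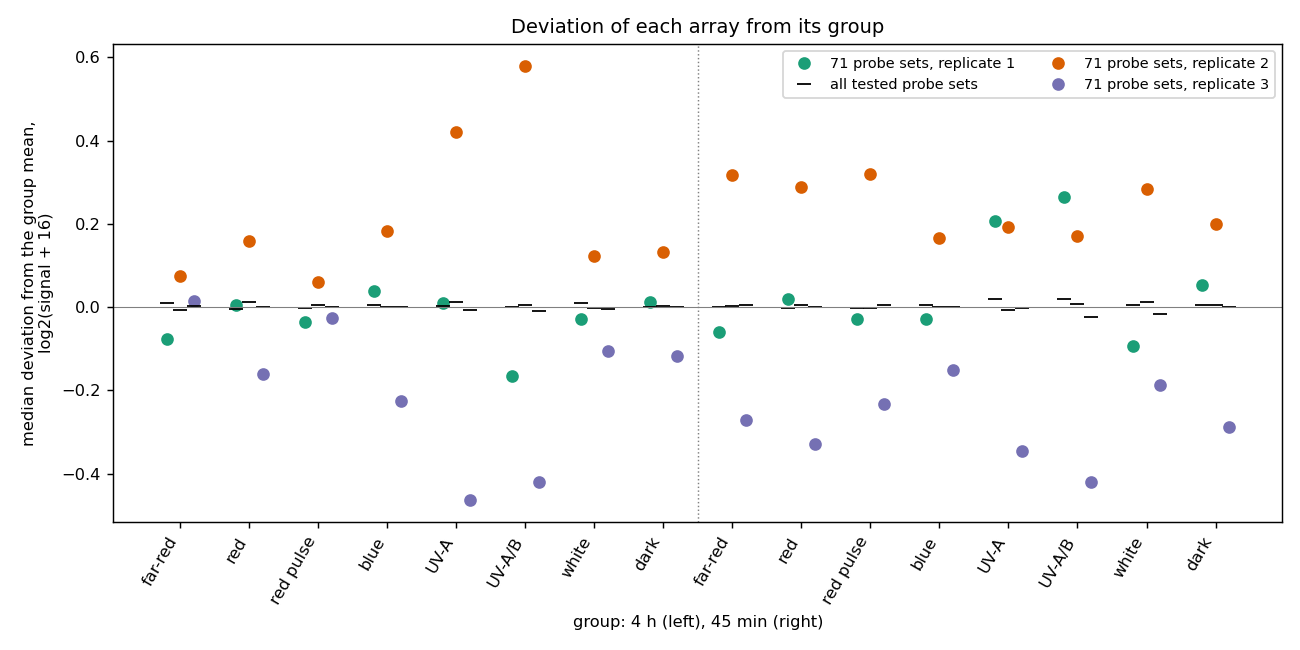
Median deviation of each array from its group mean, in log2(signal + 16), for the 71 late light-induced probe sets (coloured points, by replicate number) and for all tested probe sets (black dashes), with 4 h groups left of the dotted line and 45 min groups right of it. Replicate 2 lies above replicate 3 in 16 of 16 groups, with the widest gaps under UV-A and UV-A/B at 4 h, while the black dashes stay near 0.

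The light-over-dark differences at both harvests chose the members, so they are given as a description without a test. At 4 h the median member differed from darkness by 1.77 under far-red, 1.69 under red, 1.70 under blue and 1.65 under white light. After the pulses it differed by 1.25 (red), 1.24 (UV-A/B) and 1.19 (UV-A). At 45 min the corresponding medians lay between -0.04 under blue light and 0.19 after UV-A/B, where 62 of 71 members were above 0. Among all 11838 probe sets with a mean of 50 or more, 4737 were above 0 after UV-A/B at 45 min, with a median of -0.05. The members moved together between arrays, so the 62 are not separate observations. Medians over the 11838 probe sets at 4 h lay between -0.05 and 0.00. The 4 continuous lights thus gave the larger differences and the 3 pulses the smaller ones. Far-red light gave the highest difference for 25 members, red for 22, white for 14, blue for 8, and the red pulse and UV-A/B for 1 each. The lowest difference came after UV-A for 28 members, after the red pulse for 22 and after UV-A/B for 17.

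Within the set, the distance between the strongest and the weakest light had a median of 0.57 and ran between 0.09 and 2.58. For 27 members it was under 0.5 and for 16 it was 1 or more. In darkness the members changed little between harvests, with differences (dark 4 h over dark 45 min) between -0.44 and 0.39 and a median of 0.06. In 67 of 71 members all 21 light arrays at 4 h lay above all 3 dark arrays, against 4.09% of the 11838 probe sets, a share that the choice of members fixes in large part. The 4 exceptions were TROL, 254298_at, 261218_at and 256468_at, in which UV-A or UV-A/B arrays overlapped the dark ones. When each light array was set against the dark array of its own replicate number, 71 of 71 members were above 0 in all but 1 of the 21 pairings. That pairing was UV-A/B replicate 3, with 70 of 71. The members were chosen on these same arrays, which fixes these counts in large part. The median difference under UV-A was 1.19, 1.51 and 0.88 for numbers 1, 2 and 3, and under UV-A/B it was 1.04, 1.69 and 0.94. Under continuous far-red light it was 1.67, 1.77 and 1.94.

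**Figure D2:**
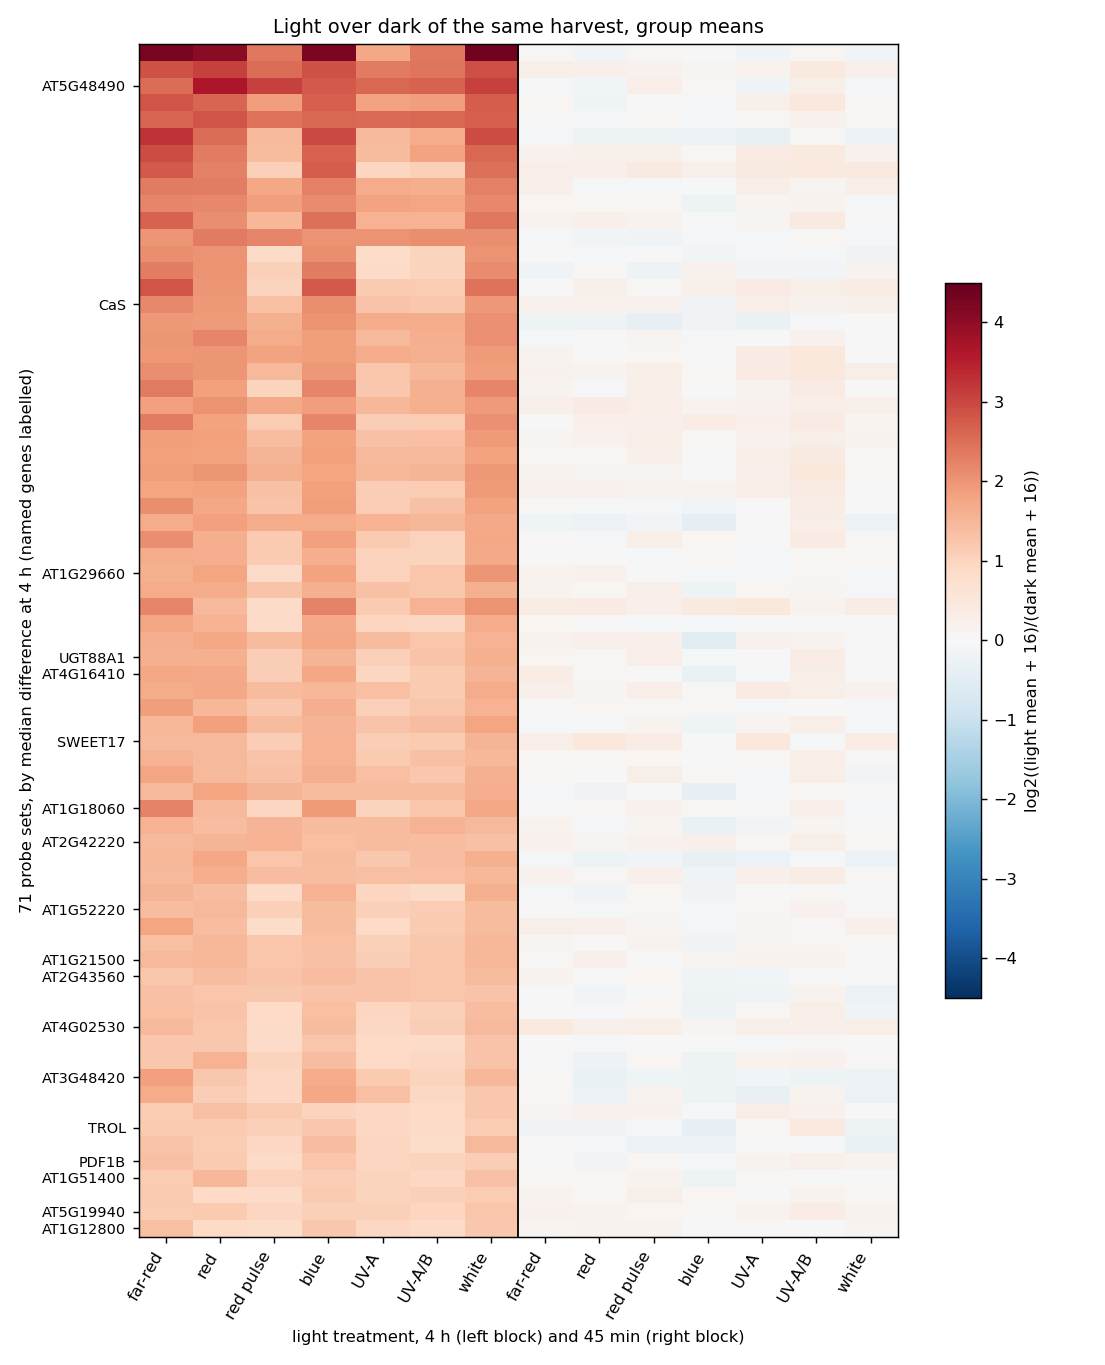
Light-over-dark differences of group means, as log2((light mean + 16)/(dark mean + 16)), for the 71 probe sets in rows (sorted by their median at 4 h, genes named where the annotation gives 1) under 7 light treatments at 4 h (left block) and 45 min (right block). The left block is red throughout and weaker under the red pulse, UV-A and UV-A/B, and the right block stays within 0.5 of 0, as the choice of members requires.

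The 18 named members are given by the known roles of their products, a grouping made after the members were known. The thylakoid is the inner membrane system of the chloroplast, in which the light reactions take place. CaS, the thylakoid calcium-sensing receptor, had signals of 64.1 (lowest), 181 (median) and 246 (highest) over the 21 light arrays at 4 h, against 35.7, 40.0 and 42.7 in the dark arrays. The groups did not overlap, and the lowest light arrays were UV-A/B replicate 3 and UV-A replicate 3. Its differences were 2.18 under far-red and 2.10 under blue light, and 1.34 after the red pulse, 1.27 after UV-A and 1.21 after UV-A/B. AT1G52220 (CURT1C) belongs to the family that bends thylakoid membranes at the edges of grana. It had 215, 341 and 435 as lowest, median and highest light signals and 121, 142 and 114 in the dark arrays, without overlap, and its differences kept between 1.08 and 1.44. AT1G51400, a 5 kD protein of photosystem II, had 535, 762 and 1095 in light and 339, 366 and 296 in darkness. It was highest under red light, with 889, 1095 and 918, and the light and dark arrays did not overlap.

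TROL, a thylakoid rhodanese-like protein that anchors ferredoxin-NADP oxidoreductase, had light signals of 59.4, 145 and 196 and dark signals of 64.6, 66.0 and 46. The overlap came from replicate 3 of UV-A and of UV-A/B, with 65.2 and 59.4, while the other 19 light arrays were all above the dark ones. AT4G02530, a protein of the thylakoid lumen, had 91.5, 175 and 247 in light and 71.8, 62.6 and 60.4 in darkness, and its differences ran between 0.84 after the red pulse and 1.46 under white light. A predicted FKBP-type peptidyl-prolyl isomerase, AT2G43560, responded evenly, with differences between 1.24 and 1.43 over the 7 lights. AT2G42220, a chloroplast protein with a rhodanese-like domain, was nearly as even. Its differences ran between 1.33 under white light and 1.55 after the red pulse, which for most members was among the weaker treatments. Its arrays were split by replicate, with 186, 266 and 90.0 under UV-A and 126, 299.5 and 99.2 under UV-A/B, against 58.3, 59.3 and 54.3 in darkness.

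Other members encode plastid proteins outside the light reactions. AT3G48420, a chloroplast phosphatase of the CbbY type that removes a by-product inhibitor of Rubisco, was barely detected in darkness, with 11, 10.2 and 3.3. Over the light arrays it had 11.4, 49.4 and 81.8, with the lowest in UV-A/B replicate 3 and the highest in far-red replicate 2. PDF1B, a peptide deformylase that removes the formyl group of newly made plastid proteins, had 32.5, 63.5 and 88.4 in light and 29, 25.5 and 6.9 in darkness. The dark values of both genes lie near the floor of the array, where the pseudocount of 16 understates a change. AT5G19940, a plastid-lipid-associated protein of the fibrillin family, had differences between 0.97 and 1.25. AT1G12800, a plastid protein with S1 RNA-binding domains, had the lowest median of the set, 0.93, with 72.2, 141 and 201 in light and 68.4, 54.0 and 53.5 in darkness. In each of these genes the light arrays lay above the dark arrays.

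The named gene with the highest median difference acts outside the plastid. AT5G48490, a lipid transfer protein related to DIR1, had 167, 321.5 and 576 over the light arrays, against 27.1, 30.5 and 25.7 in darkness, and a median difference of 2.77. Its differences were 3.65 under red, 3.09 under white, 3.08 after the red pulse and 2.77 under blue light. They were 2.66 after UV-A/B, 2.57 after UV-A and 2.51 under far-red light, its lowest by a small margin. Replicate 3 of UV-A (167.1), UV-A/B (181.5) and blue light (190.1) lay below all far-red arrays. The probe set 255248_at also had red light highest (2.35) and far-red light lowest (1.99), and no other member was lowest under far-red light. AT1G29660, an esterase of the GDSL lipase family, had 400.3, 678 and 1013 in light and 194, 268 and 209.9 in darkness. It was highest under white light (1.97) and lowest after the red pulse (0.85).

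UGT88A1, which transfers glucose from UDP-glucose to small molecules, had 233, 378 and 484 in light and 131, 133 and 123.3 in darkness, and its differences ran between 1.07 after UV-A and 1.62 under red light. SWEET17, a fructose transporter of the vacuole membrane, had 546, 806.5 and 1029 in light and 336, 379 and 213 in darkness. Here the replicates were ordered differently. Replicate 2 had the lowest signal under UV-A (717, 546 and 781.5 in replicates 1 to 3) and under UV-A/B (806.5, 548 and 788), where most members had their highest. SWEET17 was also close to the early limit, with 0.48 under red and 0.46 under UV-A light at 45 min.

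**Figure D3:**
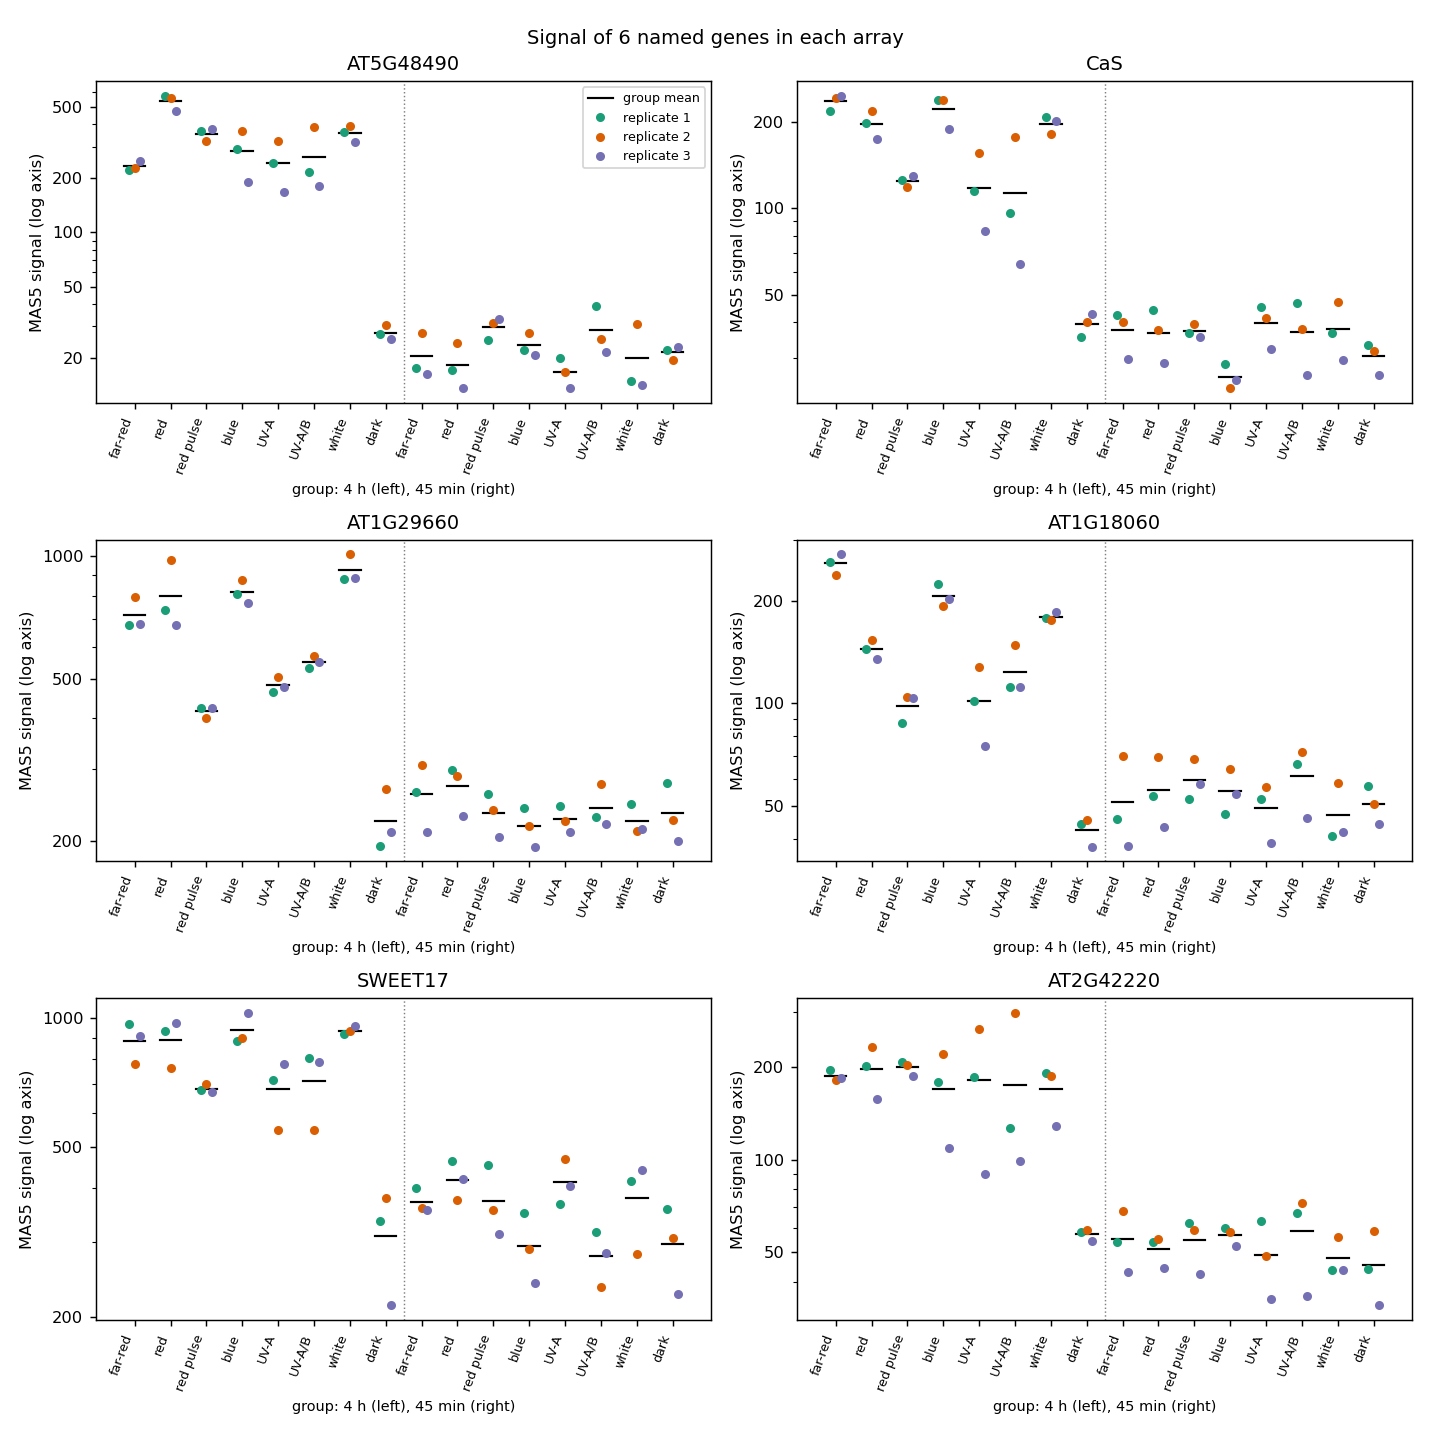
MAS5 signal (log axis) of AT5G48490, CaS, AT1G29660, AT1G18060, SWEET17 and AT2G42220 in each array, with points coloured by replicate, black bars at group means, 4 h groups left of the dotted line and 45 min groups right of it. All light arrays at 4 h lie above the dark arrays of 4 h in these 6 panels. AT5G48490 has its lowest group mean under far-red, close to that after UV-A, while CaS and AT1G18060 are highest there.

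The last 3 named members, AT1G18060, AT4G16410 and AT1G21500, encode proteins whose role is not given here. AT1G18060 had 75.2, 148.5 and 274 over the light arrays and 44.4, 45.6 and 38 in darkness, and ranged between 0.97 after the red pulse and 2.22 under far-red light. AT4G16410 had 94.8, 242 and 382.5 in light and 71.4, 93.1 and 68.2 in darkness, so that its lowest light array, UV-A replicate 3, lay just above the highest dark one. AT1G21500 kept between 1.11 and 1.48. Among the 53 members without a gene name, 248684_at had the highest median difference of the set, 4.07, with 204.5, 1189 and 1626 in light and 53.6, 52.5 and 63.4 in darkness. Next came 259840_at with a median of 2.86 and 259892_at with 2.64. The median difference was 2 or more for 14 members and under 1.2 for 8.

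The thresholds divide a continuum. Just inside the limit of 0.8, the smallest differences at 4 h were 0.81 for 252911_at (UV-A), 0.83 for AT1G12800 (red pulse) and 0.83 for 261218_at (UV-A/B). Just outside it were 0.80 for AT5G59250 and 0.79 for AT3G47650 (both red pulse) and 0.79 for 261788_at (UV-A/B). At 45 min, the largest sizes just inside 0.5 were 0.48 each for 252441_at, SWEET17 and 254790_at. Just outside stood 261746_at with 0.50, FUG1, a translation initiation factor of plastids, with 0.51, and 259491_at with 0.53.

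Differences between the light treatments at 4 h were not used in choosing the members, beyond the floor of 0.8 that each light had to reach, and 9 of them were tested. The test was limma over all 48 arrays on log2(signal + 16), with Benjamini-Hochberg adjustment over the 15777 probe sets of each comparison and a call at an adjusted p under 0.05. All 71 members passed the filter on low signals. Continuous red light was set against the red pulse to ask how much of the response a pulse can give. The median member was 0.37 higher under red light, 69 of 71 differences were above 0, and 58 were above 0 within each of the 3 replicate numbers. The median over all tested probe sets was 0.00, and within numbers 1, 2 and 3 it was 0.00, 0.01 and 0.00. Shares over all tested were not counted for differences above or below 0, here or further on, nor for unadjusted p-values. The members moved together between arrays, so such counts are not separate observations. In this comparison 10 members (14.1%) were called higher, against 1.98% of all tested, and 0 were called lower, against 2.36%, while 30 had an unadjusted p under 0.05 in either direction.

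The largest of these differences was that of 248684_at, with 1189, 1054 and 1358 under red light and 303, 359 and 403 after the pulse. Its arrays did not overlap, and the difference was 1.71 ± 0.17 (SE, n = 3 each, limma adjusted p = 2.81e-09). The probe set 248128_at followed with 913, 914 and 816 against 403, 353 and 366.5, a difference of 1.20 (limma adjusted p = 1.7e-06), and 252911_at with 131, 124 and 113 against 47.1, 42 and 50.3, a difference of 1.15 (limma adjusted p = 1.62e-07). The one named gene among the 10 was AT1G29660, with 736.5, 979 and 677 under red light and 423, 400.3 and 423.5 after the pulse, 0.90 ± 0.13 higher (SE, limma adjusted p = 6.42e-06).

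The replicate number was then used as a block, which same-numbered arrays support here (all 3 correlations of their deviations over 0.1). In that fit 27 members (38%) were called higher under red light than after the pulse and 0 lower. The shares of all tested were 3.04% and 3.21%. The 10 were among the 27. The named genes added were CaS (0.60, adjusted p = 0.0121 with the block and 0.0584 without), AT1G51400 (0.44, 0.00474 and 0.187), AT1G18060 (0.48, 0.0109 and 0.0742), AT4G02530 (0.40, 0.0288 and 0.129), AT5G48490 (0.57, 0.0326 and 0.133) and AT4G16410 (0.57, 0.0387 and 0.526). The other named members, among them SWEET17, TROL, AT2G43560 and AT2G42220, were called in neither fit. For AT2G42220, with 201.5, 231 and 157 under red light and 208, 203 and 187 after the pulse, the difference was -0.03 with a 95% interval of -0.57 to 0.51, which leaves a change in either direction possible.

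Continuous far-red light was above the red pulse in 65 of 71 members. Here 24 of 71 (33.8%) were called higher, against 8.92% of all tested, and 1 (1.41%) was called lower, against 9.47%. The median difference was 0.37, as for red light, with 58 members above 0 and 3 below 0 in all 3 replicate numbers. Over all tested probe sets the median was -0.02. AT1G18060 had 259, 238 and 274 under far-red light and 87.4, 104 and 104 after the pulse, a difference of 1.25 ± 0.16 (SE, n = 3 each, limma adjusted p = 3.76e-08). CaS had 218, 242 and 246 against 125, 118 and 129, a difference of 0.84 ± 0.19 (SE, limma adjusted p = 0.000707). In both genes the arrays of the groups were separate.

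AT3G48420, with 73.9, 81.8 and 56.4 under far-red light and 29.7, 27 and 33 after the pulse, was 0.91 higher (limma adjusted p = 0.0164), a call lost without far-red replicate 1 or 2 or red pulse replicate 2 (limma adjusted p = 0.0533, 0.0769 and 0.0592) and with a pseudocount of 1 (1.20, limma adjusted p = 0.158). AT4G02530 was 0.61 higher (limma adjusted p = 0.00123) and AT1G29660 0.76 higher (limma adjusted p = 1.63e-05). Among probe sets without a gene name, the highest were 248684_at (1.93), 245501_at (1.84) and 263676_at (1.82). The lone member called lower was AT5G48490, with 223, 228 and 249 under far-red light and 369, 321.5 and 374 after the red pulse, a difference of -0.57 ± 0.20 (SE, limma adjusted p = 0.0452). The groups did not overlap, yet the call was lost without any single array of the pair (limma adjusted p between 0.0565 and 0.131), with a pseudocount of 1 (limma adjusted p = 0.12) and without the filter on low signals (limma adjusted p = 0.0706). It held with the replicate block (limma adjusted p = 0.0106).

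**Figure D4:**
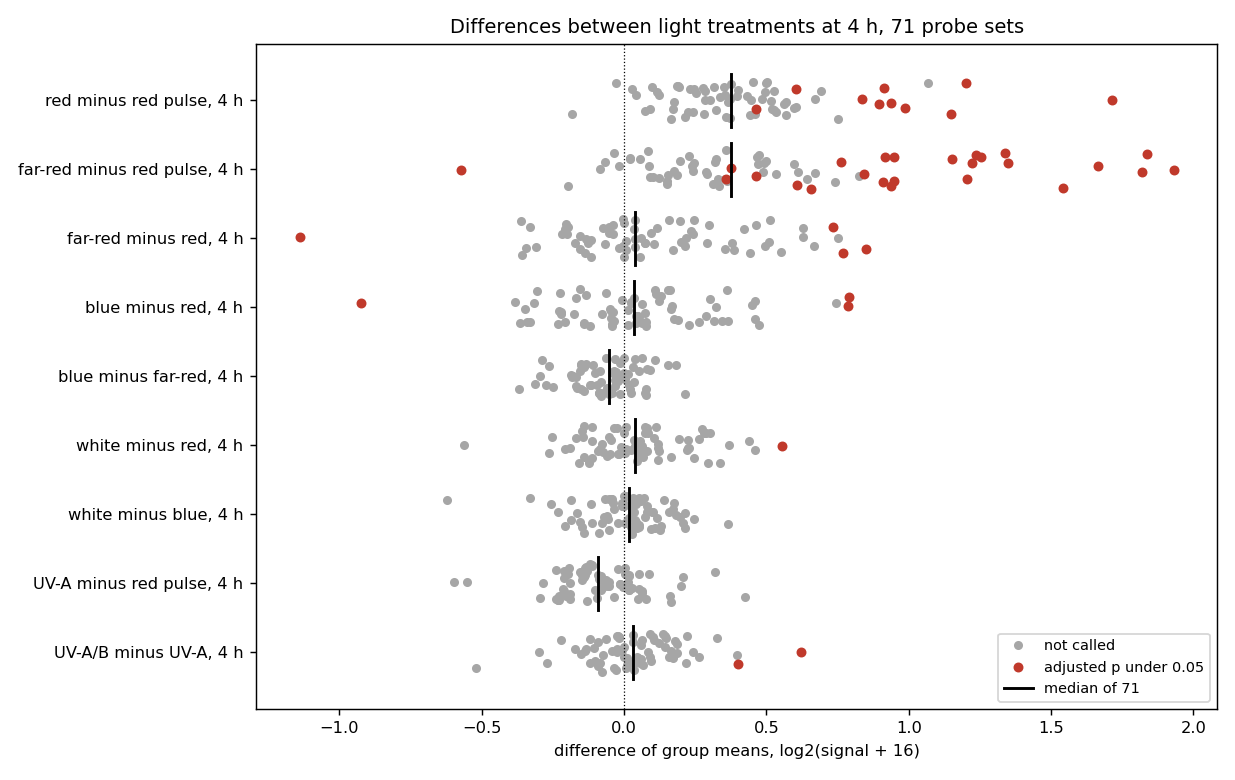
Differences between group means at 4 h in log2(signal + 16) for 9 pairs of light treatments, with 1 point per member (71 in each row), red where the limma adjusted p is under 0.05, and black bars at the row medians. Red and far-red light lie above the red pulse for most members, and the rows that compare continuous lights with each other or UV-A with the red pulse centre near 0.

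Pairs of continuous lights were compared next. Between far-red and red light 3 members were called higher under far-red light and 1 lower, 4.23% and 1.41% of the set, against 4.17% and 3.45% of all tested, which is near or below the background, and 11 had an unadjusted p under 0.05. Those higher were 245501_at (267, 267 and 288 under far-red, 132, 135.5 and 169.8 under red light, 0.85), AT1G18060 (259, 238 and 274 against 144, 154 and 134.5, 0.77, limma adjusted p = 0.000572) and 252365_at (0.74). AT5G48490 ran the other way. It had 223, 228 and 249 under far-red light and 576, 556 and 472 under red light, without overlap, a difference of -1.14 ± 0.20 (SE, n = 3 each, limma adjusted p = 9.77e-05). With the replicate number as a block 8 members (11.3%) were called higher and 2 (2.82%) lower, against 5.42% and 5.18% of all tested. The share called higher was thus above the background in this fit and near it in the fit without the block. Members that move together are not separate observations in either fit. AT3G48420 (0.63) and AT1G51400 (-0.36) were among those added. In this pair the lowest correlation between same-numbered arrays was 0.08, so the numbers are not taken to pair the samples.

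Between blue and red light 2 members (2.82%) were called higher under blue light and 1 (1.41%) lower, against 2.5% and 1.94% of all tested. They were 245501_at (0.79) and 252365_at, with 839, 827 and 886 under blue and 481, 477 and 500.4 under red light (0.79, limma adjusted p = 1.64e-06). The one lower was again AT5G48490, with 291, 365 and 190.1 under blue light and 576, 556 and 472 under red light, a difference of -0.93 ± 0.20 (SE, limma adjusted p = 0.00293), which without blue replicate 3 was -0.68 (limma adjusted p = 0.0789). With the replicate block, 4 members (5.63%) were called higher and 2 (2.82%) lower, against 3.44% and 3.31% of all tested. AT1G18060 (0.47) and AT1G51400 (-0.38) were among those added. White light was called above red light in 1 member (1.41%) and below it in 0, against 0.501% and 0.139% of all tested. That member was 252365_at, with 739.7, 767 and 662 under white light and 481, 477 and 500.4 under red light (0.55, limma adjusted p = 0.00285).

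Blue against far-red light called 0 members in either direction, against 0.114% higher and 0.222% lower among all tested, and 0 members had an unadjusted p under 0.05 in limma. White against blue light also called 0, against 0.254% and 0.209%, with 3 members at an unadjusted p under 0.05. Differences ran between -0.37 and 0.21 for blue minus far-red light and between -0.62 and 0.36 for white minus blue light. For CaS, blue minus far-red light was -0.09 and for AT1G29660 it was 0.18. Blue minus far-red light was not the same in each replicate number. Its median over the members was 0.07 and 0.04 in numbers 1 and 2 and -0.31 in number 3, where 65 of 71 were below 0.

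The pulses were compared with each other last. UV-A against the red pulse called 0 members, against 0.0254% higher and 0.0127% lower among all tested, with 3 at an unadjusted p under 0.05 in limma. The median difference was -0.02, 0.25 and -0.47 within numbers 1, 2 and 3, so its direction turned with the replicate. UV-A/B was called higher than UV-A in 2 members (2.82%) and lower in 0, against 5.05% and 3.92% of all tested. They were 248684_at, with 335, 429 and 323 after UV-A/B and 235, 246 and 204.5 after UV-A (0.62, limma adjusted p = 0.0148), and 252365_at, with 588, 496.5 and 507 against 387, 347 and 466 (0.40, limma adjusted p = 0.0105). In both the arrays of the groups were separate. The call for 248684_at was lost without UV-A/B replicate 2 or UV-A replicate 3 (limma adjusted p = 0.121 and 0.0811), and that for 252365_at without UV-A/B replicate 1 or UV-A replicate 2 (limma adjusted p = 0.0947 and 0.104). Fitted on these groups alone, neither was called (limma adjusted p = 0.0501 and 0.202), and with a pseudocount of 1 the call for 248684_at was lost (limma adjusted p = 0.0627).

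Other genes of greening were taken from lists of pathways. Only genes with a named probe set could be counted, and 1.27% of all tested probe sets were called higher than darkness in all 7 lights at 4 h and 0.653% lower in all 7. Of 33 nuclear genes for photosystems and electron transport, 5 had a named probe set and all 5 were called higher in all 7 lights. These were PSAE-1, PSAN and PSBY, with medians over the lights of 2.30, 2.00 and 1.71, and PSBW and ATPC1, with 1.48 and 1.09, and all but PSBY met the thresholds of the set and were left out by name. Among the antenna genes, LHCB4.1 (1.23) and LHCB4.2 (1.38) were called in all 7 lights and LHCB4.3 (0.09) in 2. Of 3 Calvin cycle genes, RCA, which activates Rubisco, was called in all 7 (1.86), SBPASE in 4 (0.98) and PRK in 0 (0.21). The 8 genes called in all 7 lights are the 8 names on the leave-out list. Of these, 6 met the floor of 0.8 in every light on these same arrays, which fixes their calls in large part. Their count is therefore a description and not a test against the share of all tested.

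No other list had a non-member called in all 7 lights. Of 8 chlorophyll synthesis genes, 4 were called higher in some lights. HEME1 (0.87) and HEME2 (0.71), which make uroporphyrinogen decarboxylase, were called in 6, and the magnesium chelatase subunit CHLI2 (0.80) and the methyltransferase CHLM (0.78) in 4. PORB, the protochlorophyllide reductase, was called lower in 3 (-0.35). None of 5 plastid ribosomal protein genes was called, with medians between 0.01 and 0.57. Among plastid thioredoxin and antioxidant genes TRXF2 (0.95) was called in 6 lights, NTRC (0.78) in 5 and SAPX (0.33) in 3 of 6 tested. Z-ISO (0.54) and LYC (0.21) of carotenoid synthesis were called in 5 and 4 lights. Of 4 photorespiration genes, HPR (1.81) and AT1G11860 (0.80) were called higher in 4 lights and AT1G32470 (0.75) in 1, and AT1G80380 was called lower in 6 (-0.82).

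HYH, a bZIP activator of light-induced genes, was called higher in 5 lights at 4 h (median 2.00) and in all 7 at 45 min. With the replicate block, calls in all 7 lights at 4 h covered 2.24% of all tested and 14 list genes that are no members, adding CHLM, HEME1, HEME2, NTRC, TRXF2 and HPR to the 8. Leaving out 1 array gave 4 to 9 such genes, with 4 or 5 when replicate 1 or 3 of dark 4 h, replicate 2 or 3 of the red pulse, or replicate 2 of UV-A or UV-A/B was missing. The sigma factor list had no named probe set, and AT5G48490 is the one named gene of the lipid transfer list. Of the markers for other tissues, PYK10, abundant in roots and hypocotyls, averaged between 2966 and 3721 in the light groups and 3318 in darkness at 4 h. FMA, a guard cell regulator, averaged between 19.3 and 23.8 in light and 18.2 in darkness. These averages lie below the 40th percentile of every array (24.3 to 30.1), near the floor, where a change can be missed. Neither PYK10 nor FMA was called in any light. The mesophyll, epidermis, phloem and seed storage lists had no named tested probe set, so the part of cell type shares in these results was not tested.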

How the data were processed

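Total RNA of 48 seedling samples was measured on ATH1 arrays. The authors deposited linear intensity values. The submitters' processing notes name MAS5 as the source of these signals, and its version is not given in the sources used here. Trimmed means of 99.96 to 99.97 in the arrays show scaling to a common level, and 567 values are 0. Precision is limited by the number of arrays. The labels gave groups and replicate numbers.

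From these values, log2(signal + 16) was computed, on the scale that chose the members. A probe set was tested if 3 or more arrays had it above their own 40th percentile, which with 64 controls removed gave 15777. limma 3.58.1 (R 4.3.3) fitted a mean for each of 16 groups (lmFit, eBayes with an intensity trend, 32 residual degrees of freedom), with Benjamini-Hochberg adjustment within each contrast. The fit was tested on simulated data. Tables used Python 3.11.15, pandas 2.3.3, numpy 2.4.6 and matplotlib 3.10.9.

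Of 22746 probe sets, 13513 have 1 gene in the platform annotation, 503 several and 8730 are not listed. Of these, 13436 were matched by gene ID to RefSeq symbols (TAIR10.1). Members, lists and tests were chosen with earlier results of these data known. Members are named by 4 rules: the 12 named genes with the highest median difference, the 3 called members with the largest differences per contrast and direction, genes with a symbol, and those next to a threshold. AT3G48420, AT1G51400 and AT5G19940, which complete the 18, and PORB were named after their values were seen. Of each list, genes called in all 7 lights and up to 4 more are named. Replicate numbers were taken to pair samples where all 3 same-numbered arrays of 2 groups had deviations correlated above 0.1. This held in 8 of 9 contrasts (0.08 to 0.57 in all). The labels state no shared batch. Sequences were not used here.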

Additional observations from a re-analysis of the deposited data

How the results depend on the processing

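The number of probe sets that meet the thresholds was 71. It was 43 with group medians in place of means, between 47 (without UV-A/B 4 h replicate 2) and 81 with 1 array left out, and 44 without replicate 2 of both UV groups at 4 h, a choice made after seeing the data. With a pseudocount of 1 it was 88, of which 60 are among the 71. Calls for red minus red pulse numbered 27 with the replicate block, 27 in a fit on these groups alone and 16 without the UV-A and UV-A/B 4 h arrays (added after seeing the data), against 10, and 7 to 10 with 1 array left out. For far-red minus red pulse the fit on these groups alone gave 45, against 25, and 19 to 22 with 1 array left out. The replicate block and the fit on these groups alone gave 10 and 12 for far-red minus red (4 in the full fit without the block) and 6 and 5 for blue minus red (3 there). For UV-A/B minus UV-A, the 2 calls became 1 with a pseudocount of 1, 0 in a fit on these groups alone and 1 to 2 with 1 array left out. It was 1 without UV-A/B replicate 1 or 2 or UV-A replicate 2 or 3. List genes called in all 7 lights numbered 14 with the replicate block and 4 to 9 with 1 array left out, against 8, the names on the leave-out list. They were 4 without dark 4 h replicate 1 or 3, red pulse replicate 2 or UV-A replicate 2, and 5 without red pulse replicate 3 or UV-A/B replicate 2. The block changed no other count by over 1.5 times. Alternatives were also run for the called members with the largest differences per contrast and direction, with or without a gene name. Of 252 such comparisons 232 kept direction and call, 20 lost the call and 0 reversed. Members that were not called are not covered by these counts. Other counts stayed within 1.5 times under the alternatives run. The causes were not tested. Promoter motifs were not counted, in either window, because no promoter sequences were given. Signals near the floor limit fold changes of low genes.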
